A study of Mus musculus with 6 samples.

Results

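The core spliceosome component genes described here encode the proteins of the small nuclear ribonucleoproteins (snRNPs) and the factors that act with them on pre-mRNA. They were taken as the rows of the deposited expression table whose gene symbol stood on a list of 59 snRNP, SF3, PRP19-complex and step-helicase genes. The rule used gene function and no expression value, but this and the other gene lists were chosen with earlier results of these data known. All 59 were found among the 54532 genes of the table, all 59 are annotated as protein-coding, and all 59 passed the filter for testing, which 16206 genes passed. The table came from RNA-seq of mouse testes taken whole at 5 days postpartum (dpp), in 3 control (Ctrl) and 3 conditional knockout (cKO) samples. The cKO mice carried *Vasa*-Cre with 1 floxed and 1 deleted *Srsf1* allele (*Srsf1* Fl/del), whereas the labels give the control genotype only as Ctrl. *Vasa*-Cre places the recombinase under a promoter of germ cells, so the Sertoli, Leydig, peritubular and other somatic cells of these testes were not its target. Nothing in the labels states whether a sample was 1 animal or a pool, so the p-values measure the spread between these samples.

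The spliceosome is assembled anew on each intron. The U1 snRNP recognises the 5′ splice site, U2AF and the U2 snRNP recognise the 3′ splice site and branch point, and the U4/U6.U5 tri-snRNP then joins. Helicases and the PRP19 complex remodel this assembly into the catalytic form. A ring of Sm proteins forms the shared core of most of the snRNPs. The deleted factor, SRSF1, belongs to the SR proteins, which bind exonic sequences and help to recruit U1 and U2AF to nearby splice sites, so that the genes described here are the machinery with which it works. The data measure the amount of mRNA of each component per gene and hold no measure of splicing itself.

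Transcript levels of the core spliceosome genes lay slightly lower in cKO than in Ctrl testes for most members, and no single member passed the test. No other tested gene passed it either, the deleted *Srsf1* included. Of the 59 genes, 50 (84.7%) had a negative log2 fold change (cKO against Ctrl), beside 49.5% of all tested genes, and the median over the members was -0.15 beside 0.0027 over all tested genes. The most negative change was that of *Sf3b3*, a subunit of the SF3b complex of U2, and the most positive was that of *Snrnp70*, the U1 70 kDa protein. Several genes grouped here with the tri-snRNP (*Usp39*, *Eftud2*, *Prpf31*, *Prpf38a*, *Prpf8*) or the PRP19 complex (*Cdc5l*, *Crnkl1*, *Plrg1*, *Ctnnbl1*) had all their cKO values below all their Ctrl values. Such a separation held for 22.0% of the members and for 12.8% of all tested genes. Ctrl 2 stood apart from the other Ctrl samples in these genes, and without it 44 of the 59 changes were negative, with a median of -0.07. Relative to the Ctrl mean, the members' median in cKO 3 (-0.02 in log2(FPKM + 1)) lay above that in Ctrl 1 (-0.05) and Ctrl 3 (-0.06). Levels are given in FPKM (fragments per kilobase of gene, scaled by library size) and changes as differences of group means on the log2(FPKM + 1) scale.

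Promoter sequences are shown for the members at both ends of this range, *Sf3b3* and *Snrnp70*. RefSeq windows of 300 bases, from 250 before to 50 after the gene start (GRCm38.p6), were matched for 46 of the 59 members. The *Sf3b3* window is chr8:110846754-110847053 and the *Snrnp70* window is chr7:45395693-45395992, both on the minus strand. Each is written 5′ to 3′ in the direction of the gene, with capitals marking matches, on either strand, to the NRF1 core ATGCGCA, the ETS core CCGGAAG or the TATA box TATAAA.
Sf3b3: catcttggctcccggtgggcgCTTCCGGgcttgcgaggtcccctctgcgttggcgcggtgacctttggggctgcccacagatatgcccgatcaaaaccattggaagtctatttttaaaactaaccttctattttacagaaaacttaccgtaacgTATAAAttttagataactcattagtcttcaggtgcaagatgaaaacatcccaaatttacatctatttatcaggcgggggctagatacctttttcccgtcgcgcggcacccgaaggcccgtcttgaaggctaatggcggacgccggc
Snrnp70: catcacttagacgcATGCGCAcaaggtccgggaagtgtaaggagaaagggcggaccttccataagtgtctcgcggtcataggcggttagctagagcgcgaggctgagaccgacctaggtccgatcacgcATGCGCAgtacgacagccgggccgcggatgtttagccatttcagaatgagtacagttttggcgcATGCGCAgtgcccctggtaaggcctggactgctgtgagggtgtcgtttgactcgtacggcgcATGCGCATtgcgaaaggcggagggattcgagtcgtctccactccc

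The *Sf3b3* window held 1 ETS match, read on the opposite strand, and 1 TATA box match, and it had a GC content of 50%. The *Snrnp70* window held 5 matches to the NRF1 core, of which the last 2 overlap on opposite strands in the final capitals, and it had a GC content of 58.7%. Across the 46 matched members, 22 (47.8%) held the ETS core, beside 19.3% of the windows of 10873 tested genes and 9.93% of the windows of 27025 genes in all. The NRF1 core was found in 2 members (4.35%), *Snrnp70* and *Syf2*, beside 5.54% of tested genes and 3.23% of all genes. The TATA box was also found in 2 members (4.35%), *Sf3b3* and *Snrpa*, beside 8.77% and 15.7%. Of the 3 motifs, the ETS core was the one with the widest gap between the share of the members and that of tested genes. Members with it had a median log2 fold change of -0.07 (22 genes) and those without it -0.18 (24 genes). The difference of these medians was not tested. Of the 10 matched members with every cKO value below every Ctrl value, 2 held the core, beside 22 of all 46. These were *Sf3a3* and *Sf3b3*, the most negative member. Matched genes with the core were 7 of 10 in the U2 group, 5 of 10 in the tri-snRNP and 5 of 12 in the PRP19 group. A match is a run of letters in this window and was not tested as a binding site. The members without a matched window were *Ddx23*, *Dhx38*, *Eftud2*, *Lsm4*, *Sart3*, *Sf3b4*, *Sf3b5*, *Slu7*, *Snrnp40*, *Snrpb*, *Snrpd1*, *U2af2* and *Usp39*.

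The deleted gene itself, *Srsf1* (ENSMUSG00000018379, chr11:88047373-88053755, GRCm38), had 82.1, 89.1 and 88.4 FPKM in Ctrl 1 to 3 but 45.1, 46.3 and 51.6 FPKM in cKO 1 to 3. All cKO values lay below all Ctrl values. Its log2 fold change was -0.85 (95% interval -1.05 to -0.64), with an adjusted p of 0.058 by limma, the smallest over all tested genes. In these testes 19 of the 20 germ cell markers passed the filter. All 19 had every cKO value below every Ctrl value, beside 12.8% of all tested genes. The summed level of the 20 markers ranged from 260.4 to 608 FPKM in Ctrl and from 75.8 to 120.03 FPKM in cKO, and none of the 20 was at 0 in any sample. Over the 20 cell cycle genes the median log2 fold change was -0.16, with 7 lower without overlap, beside 12.8% of all tested genes. The summed level of the cell cycle genes was 829 to 925 FPKM in Ctrl and 678 to 868 FPKM in cKO. The median log2 fold change was -0.12 for Sertoli cell, 0.47 for Leydig cell, -0.35 for peritubular myoid, 0.36 for endothelial, 0.03 for macrophage and 0.69 for erythroid markers. All 10 Sertoli cell markers were detected in all 6 samples, but their changes went both ways. *Cldn11* (49.5% of the Ctrl mean), *Gata1* (44.9%) and *Aard* (75.4%) were lower without overlap. *Amh* (164%) was higher without overlap, and the groups overlapped in the other Sertoli cell markers. In bulk RNA, fewer cells of a type and less RNA per cell cannot be told apart. Recovered reads per sample ranged from 15448191 to 18964743, and the members had between 361 and 10049 reads in a sample, so none was limited by the floor of 3 reads.

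Counted over the members, the test called 0 of 59 genes in either direction (limma, adjusted p at most 0.05), beside 0 of 16206 tested genes (0.0%). Since not even the deleted *Srsf1* was called, the 0 does not show that the members were unchanged. With DESeq2 on their counts, the authors reported both lower and higher genes in cKO at this threshold. Adjusted p-values of the members ran from 0.119 (*Sf3b3*) to 0.999 (*Snrpd1*). At an unadjusted p under 0.05, limma gave 8 members lower (13.6%, beside 9.31% of all tested genes) and 1 member higher (1.69%, beside 6.6% of all tested genes). With limma voom on the recovered reads the members called were again 0, with 11 at an unadjusted p under 0.05 (18.6%, beside 17.0% of all tested genes), and 83 of all tested genes (0.512%) were called. Restricting the fit to protein-coding genes called 213 of 13204 genes (1.61%) and still 0 members, and it gave *Sf3b3* its lowest adjusted p, 0.058.

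In 13 members (22.0%) every cKO value lay below every Ctrl value, beside 12.8% of all tested genes. In 1 member (1.69%), *Snrnp70*, every cKO value lay above every Ctrl value, beside 10.3% of all tested genes. The groups overlapped in the other 45 members. The log2 fold changes ran from -0.50 (*Sf3b3*) to 0.22 (*Snrnp70*), and 21 of the 59 members had an absolute value under 0.1. The 95% interval lay within 1.5-fold in either direction for 51 of the 59 members and within 2-fold for all 59. The widest bound was 1.77-fold (*Snrpf*), and the median of the members' bounds was 1.36-fold. These bounds hold for RNA of whole testes, and the change within germ cells, the target of *Vasa*-Cre, was not measured.

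**Figure D1:**
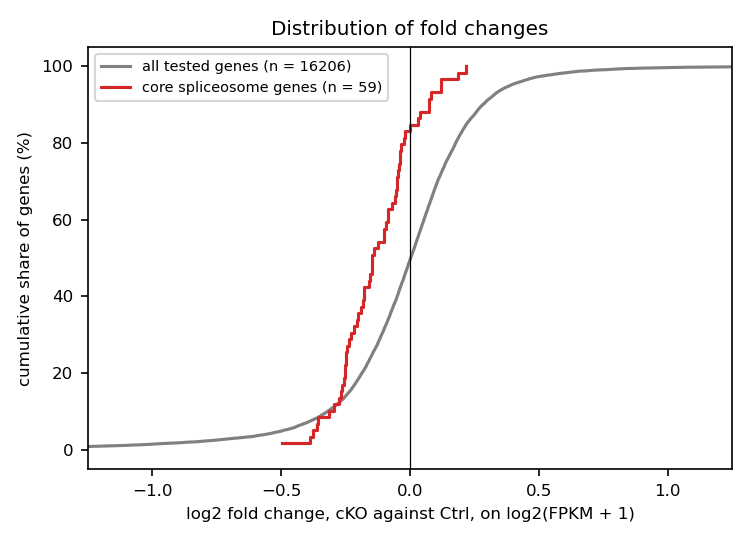
Cumulative share of genes (vertical axis, percent) against the log2 fold change, cKO against Ctrl, on log2(FPKM + 1), for the 59 core spliceosome genes (red) and the 16206 tested genes (grey). The red curve reaches 84.7% just below 0, where the grey curve is at 49.5%, and it runs from -0.50 (*Sf3b3*) to 0.22 (*Snrnp70*), a narrower range than that of all genes.

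The members were well measured. Their mean levels ran from 4.19 FPKM (*Isy1*) to 124.002 FPKM (*Snrpb*), with a median of 24.8 FPKM beside 5.93 FPKM for all tested genes. Within a group, the coefficient of variation of a member had a median of 9.54%, and the median standard error of a log2 fold change was 0.11 for the members and 0.13 for all tested genes. All 59 lie on autosomes, spread over 17 chromosomes.

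The samples of a group did not sit at the same level. Taking for each sample the median over the members of log2(FPKM + 1) minus the Ctrl mean, Ctrl 1 was at -0.05, Ctrl 2 at 0.11 and Ctrl 3 at -0.06, and cKO 1 was at -0.18, cKO 2 at -0.21 and cKO 3 at -0.02. The same median over all tested genes stayed between -0.0047 and 0.00083. Ctrl 2 thus stood above the other Ctrl samples and cKO 3 above the other cKO samples, and cKO 3 lay above Ctrl 1 and Ctrl 3. Ctrl 2 was the highest of all 6 samples in 31 members, cKO 3 was the highest cKO sample in 46 members and cKO 2 was the lowest of all 6 in 26 members. Without Ctrl 2 the members' median log2 fold change was -0.07, with 44 negative, without cKO 1 it was -0.09, with 46 negative, and without cKO 3 it was -0.21, with 52 negative. Ctrl 2 was also the sample with the highest germ cell marker levels (mean log2(FPKM + 1) of 4.27, beside 3.19 and 3.14 in Ctrl 1 and Ctrl 3), and the germ cell markers' median log2 fold change was -1.57 with it and -1.20 without it. Among the cKO samples the germ cell markers were highest in cKO 2 (2.30, beside 1.73 in cKO 1 and 1.88 in cKO 3). The members' median was lowest in that sample. Cell cycle genes, summed, were highest in Ctrl 2 and lowest in cKO 2. The part of the germ cell and cell cycle values in the members' result was not tested.

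**Figure D2:**
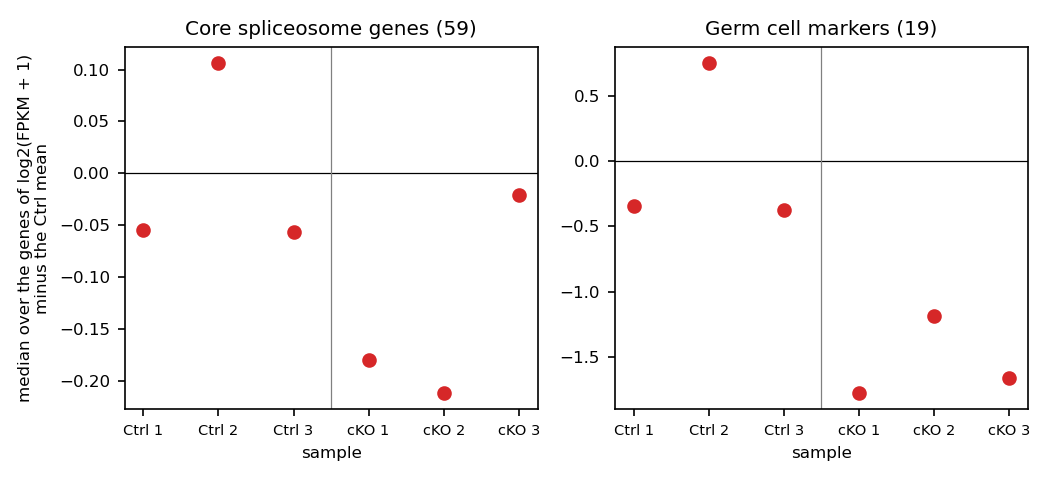
For each of the 6 samples (horizontal axis), the median over the 59 core spliceosome genes (left) and over the 19 tested germ cell markers (right) of log2(FPKM + 1) minus the mean of the Ctrl samples. The vertical scales differ. For the spliceosome genes cKO 3 (-0.02) lies among the Ctrl samples, and for the germ cell markers all cKO samples lie below all Ctrl samples.

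**Figure D3:**
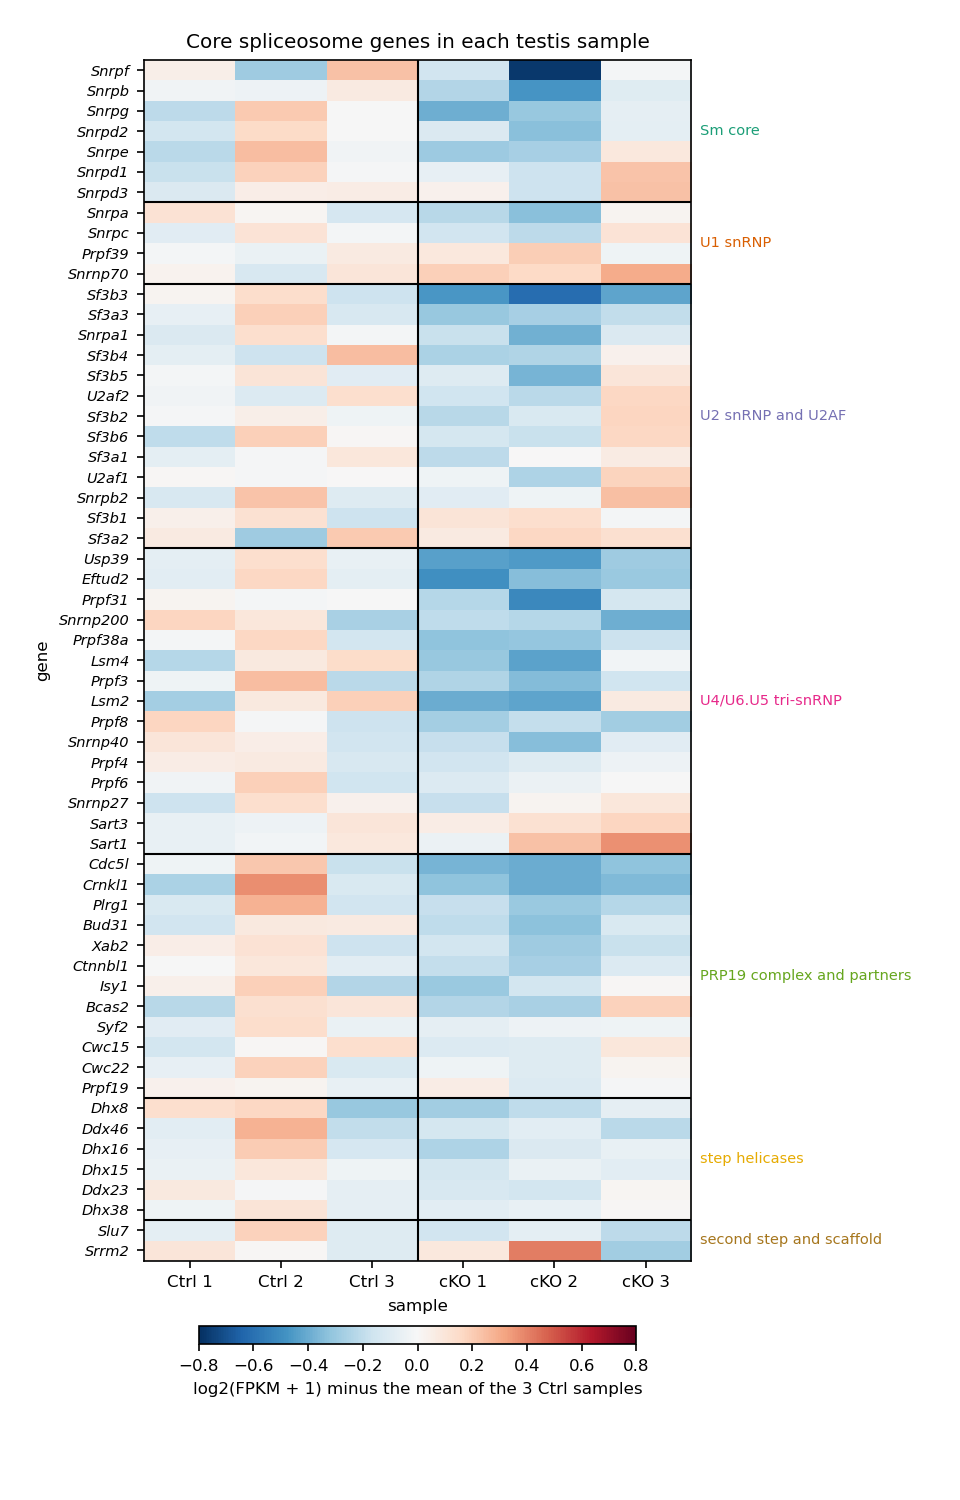
Each row is 1 of the 59 genes, grouped by role, and each column 1 sample; colour gives log2(FPKM + 1) minus the mean of the 3 Ctrl samples. Blue prevails in cKO 1 and cKO 2, and the rows of *Sf3b3*, *Usp39*, *Eftud2*, *Cdc5l* and *Crnkl1* are blue in all 3 cKO samples, while *Snrnp70* is red in all 3.

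The Sm proteins form the ring on which most spliceosomal snRNAs are packaged. Over their 7 genes the median log2 fold change was -0.18, with 6 negative and 0 called. Of the 7, 1 was lower without overlap, beside 12.8% of all tested genes. The median depended on single samples, since it was -0.10 without Ctrl 2 or without cKO 2, -0.27 without Ctrl 1 and -0.28 without cKO 3. *Snrpb*, which encodes SmB and is the most abundant of the 59 transcripts in FPKM, was at 132, 131 and 142 FPKM in Ctrl and at 115, 97.3 and 126 FPKM in cKO. It was the Sm gene whose cKO samples were all below the Ctrl samples (log2 fold change -0.27, 95% interval -0.53 to 0.001, adjusted p 0.315 by limma), and without cKO 2 its log2 fold change was -0.16. *Snrpg* was at 73.1, 98.2 and 84.6 FPKM in Ctrl and at 64.2, 68.3 and 80.7 FPKM in cKO, and *Snrpe* was at 60.8, 84.3 and 69.5 FPKM against 57.8, 58.7 and 75.4 FPKM. In both genes Ctrl 2 was the highest sample and cKO 3 overlapped the Ctrl range. *Snrpd2* was at 57.3, 70.8 and 63.6 FPKM in Ctrl and at 58.6, 50.2 and 60.3 FPKM in cKO. *Snrpd1* was at 108.7, 139.9 and 122 FPKM in Ctrl and at 117, 109.4 and 144 FPKM in cKO, and *Snrpd3* at 24.4, 27.4 and 27.6 FPKM against 27.0, 23.4 and 31.3 FPKM. These last 3 genes overlapped between groups, and for *Snrpd1* and *Snrpd3* the highest sample was cKO 3. The interval of *Snrpd1* was -0.33 to 0.33, and its log2 fold change was 0.09 without Ctrl 2. *Snrpf* was at 47.0, 37.1 and 53.6 FPKM in Ctrl and at 40.7, 26.1 and 45.0 FPKM in cKO, with a log2 fold change of -0.31 and an interval of -0.83 to 0.20. Its value is uncertain, since 85.4% of its exonic bases overlap exons of 4933408J17Rik or *Ccdc38* and 89.5% of its 50-base stretches also occur in other genes.

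The U1 snRNP proteins recognise the 5′ splice site. Over the 4 genes of this group the median log2 fold change was -0.0016, with 2 negative and 2 positive. *Snrnp70*, whose protein binds SRSF1, had 35.0, 31.2 and 36.7 FPKM in Ctrl and 39.2, 38.4 and 42.4 FPKM in cKO. All its cKO samples lay above all its Ctrl samples, with a log2 fold change of 0.22 (95% interval 0.003 to 0.43), an unadjusted p of 0.047 and an adjusted p of 0.309 by limma. *Prpf39*, a U1-associated factor, was at 9.2, 8.95 and 9.86 FPKM in Ctrl and at 9.96, 10.9 and 9.09 FPKM in cKO, and its groups overlapped. *Snrpa*, the U1 A protein, had a Ctrl mean of 33.6 ± 3.04 FPKM and a cKO mean of 29.6 ± 3.94 FPKM (SD, n = 3 each), and *Snrpc*, the U1 C protein, 11.0 ± 0.847 FPKM and 10.3 ± 1.37 FPKM. In both genes the groups overlapped. The difference of the means was larger than either SD for *Snrpa* but smaller than both for *Snrpc*, and neither gene passed the test. With 1 sample left out the median of this group lay between -0.02 and 0.01, on both sides of 0. The level of *Snrnp70* depends on the gene length used, because the deposited length of 7618 bases includes exons outside the principal transcript of 1735 bases. Scaled to that transcript, with all reads of the gene assigned to it, its mean was 163 rather than 37.2 FPKM. The scaled value is an upper bound, since reads in the other exons were not removed. In all, 16 members have a deposited length over 2 times that of the principal transcript.

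The U2 snRNP and U2AF act at the branch point and the 3′ splice site. Of the 13 genes, 10 had a negative and 3 a positive log2 fold change, with a median of -0.06 and 0 called. Of these 13, 2 were lower without overlap, beside 12.8% of all tested genes. Without cKO 2 that median was -0.0027, with 7 negative, without cKO 1 it was -0.03 and without cKO 3 it was -0.17. Without Ctrl 3 it was also -0.03. *Sf3b3* (ENSMUSG00000033732, chr8:110810239-110846787, GRCm38), whose promoter is printed above, was at 23.6, 25.7 and 20.5 FPKM in Ctrl and at 16.5, 14.8 and 17.1 FPKM in cKO. The samples of the groups did not overlap, and the cKO mean was 69.4% of the Ctrl mean. Its log2 fold change of -0.50 (SE 0.11, 95% interval -0.75 to -0.25, adjusted p 0.119 by limma) was the most negative of all members, and its value ran from -0.58 to -0.43 over the alternative settings, all with an adjusted p above 0.05. *Sf3a3*, which helps to dock U2 on the branch point, was at 47.1, 56.6 and 45.0 FPKM in Ctrl and at 39.8, 40.9 and 43.0 FPKM in cKO. These groups did not overlap, although cKO 3 lay close to Ctrl 3 (log2 fold change -0.25, adjusted p 0.301 by limma), and without Ctrl 2 the log2 fold change was -0.16.

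The rest of the U2 group overlapped between Ctrl and cKO. *Sf3b1*, which encloses the branch-point adenosine, was at 43.9, 46.4 and 38.0 FPKM in Ctrl and at 45.9, 46.8 and 42.2 FPKM in cKO. *Sf3a2* was at 22.3, 17.2 and 24.7 FPKM in Ctrl and at 22.3, 23.8 and 23.2 FPKM in cKO, and *Sf3a1*, the least abundant of the group, at 12.1, 12.7 and 13.7 FPKM against 11.0, 12.9 and 13.4 FPKM. None of these genes separated the groups. *Sf3b6*, the p14 subunit next to the branch point, was at 24.7, 32.8 and 28.7 FPKM in Ctrl and at 25.8, 25.1 and 32.1 FPKM in cKO. *U2af1*, which reads the AG at the 3′ splice site and is the most abundant gene of the group, was at 92.0, 90.8 and 91.7 FPKM in Ctrl and at 89.3, 76.9 and 104 FPKM in cKO. The Ctrl samples of *U2af1* had an SD of 0.646 FPKM, and the cKO samples lay on both sides of them with an SD of 13.5 FPKM. For *U2af1*, 21.7% of its 50-base stretches are shared with other genes, mostly Gm10232.

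Means with SD (n = 3 each) describe the other U2 genes. *U2af2*, which binds the polypyrimidine tract, had a Ctrl mean of 52.4 ± 4.59 FPKM and a cKO mean of 50.03 ± 7.47 FPKM, and *Sf3b2* at 77.9 ± 2.25 and 75.3 ± 11.2 FPKM. *Sf3b4* was at 33.04 ± 5.3 and 29.5 ± 3.51 FPKM, with 45.3% of its 50-base stretches shared, mostly with Gm7935, and *Sf3b5* at 26.9 ± 1.94 and 24.8 ± 4.15 FPKM. *Snrpb2* was at 28.1 ± 4.16 and 28.8 ± 3.74 FPKM, and *Snrpa1* at 14.5 ± 1.37 and 12.2 ± 1.27 FPKM. *Snrpa1* had the most negative log2 fold change of these 6 genes (-0.23), with an interval of -0.48 to 0.03.

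The U4/U6.U5 tri-snRNP brings the catalytic components to the intron, and its group had the most negative median of the role groups over all 6 samples. The group was taken broadly and includes *Prpf38a* and *Sart3*. Of its 15 genes 13 had a negative log2 fold change and the median was -0.25. Of the 15, 5 were lower without overlap, beside 12.8% of all tested genes. The median was -0.16 without cKO 2, and without Ctrl 1 (-0.19) or without cKO 3 (-0.26) it was less negative than that of the Sm genes. *Usp39*, which holds the tri-snRNP together before activation, was at 26.2, 30.6 and 26.7 FPKM in Ctrl and at 20.3, 20.03 and 22.6 FPKM in cKO. Its cKO samples all lay below its Ctrl samples, with a log2 fold change of -0.39 (95% interval -0.61 to -0.17, adjusted p 0.149 by limma). *Eftud2*, the U5 GTPase, was at 15.3, 18.4 and 15.4 FPKM in Ctrl and at 11.3, 12.7 and 13.1 FPKM in cKO (log2 fold change -0.38, 95% interval -0.62 to -0.13, adjusted p 0.174 by limma). No cKO sample reached the Ctrl range, but 26.9% of the exonic bases of *Eftud2* overlap those of Gm26668.

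*Prpf8*, the scaffold of the catalytic centre, was at 35.8, 31.6 and 28.3 FPKM in Ctrl and at 26.2, 27.7 and 26.1 FPKM in cKO. *Prpf31*, a U4/U6 protein, was at 11.3, 11.0 and 11.2 FPKM in Ctrl and at 9.41, 7.54 and 10.03 FPKM in cKO, and *Prpf38a*, which joins at activation, at 13.2, 15.1 and 12.0 FPKM against 10.52, 10.6 and 11.8 FPKM. In these 3 genes the groups did not overlap, with log2 fold changes of -0.25, -0.29 and -0.27 and limma adjusted p-values of 0.304, 0.275 and 0.289. The log2 fold change of *Prpf8* was -0.16 without Ctrl 1, and that of *Prpf31* was -0.19 without cKO 2. The gaps were narrow for *Prpf8* and *Prpf38a*, and 18.1% of the exonic bases of *Prpf31* overlap those of Gm15927. *Lsm4*, part of the U6 ring and the most abundant of the group, was at 71.8, 89.0 and 93.2 FPKM in Ctrl and at 68.1, 62.2 and 82.9 FPKM in cKO. *Prpf3*, a U4/U6 protein and the least abundant of the group, was at 9.12, 11.3 and 7.92 FPKM in Ctrl and at 7.78, 7.14 and 8.27 FPKM in cKO. In both genes the overlap came from cKO 3.

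The positive side of the tri-snRNP group held 2 genes. *Sart1*, which bridges the tri-snRNP and the pre-spliceosome, was at 19.004, 19.6 and 21.1 FPKM in Ctrl and at 19.2, 23.5 and 26.0 FPKM in cKO. *Sart3*, which recycles U6, was at 12.3, 12.5 and 13.8 FPKM in Ctrl and at 13.4, 14.1 and 14.6 FPKM in cKO. In both genes 2 cKO samples stood above the Ctrl samples and cKO 1 lay among them. Their log2 fold changes were 0.18 (95% interval -0.09 to 0.46) and 0.12 (-0.08 to 0.31).

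Mean levels (SD, n = 3 each) describe the others of the group. The U5 helicase gene *Snrnp200*, which unwinds U4 from U6, had a Ctrl mean of 24.2 ± 3.81 FPKM and a cKO mean of 19.7 ± 1.45 FPKM, and *Snrnp40* at 20.9 ± 1.96 and 17.9 ± 1.63 FPKM. *Lsm2* was at 16.5 ± 2.83 and 13.8 ± 2.96 FPKM, and *Prpf4* at 9.94 ± 0.819 and 9.18 ± 0.402 FPKM. *Prpf6* was at 26.01 ± 3.36 and 24.9 ± 0.989 FPKM, and *Snrnp27* at 22.3 ± 2.43 and 21.9 ± 2.22 FPKM. All 6 means were lower in cKO, and the groups overlapped in all 6 genes.

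**Figure D4:**
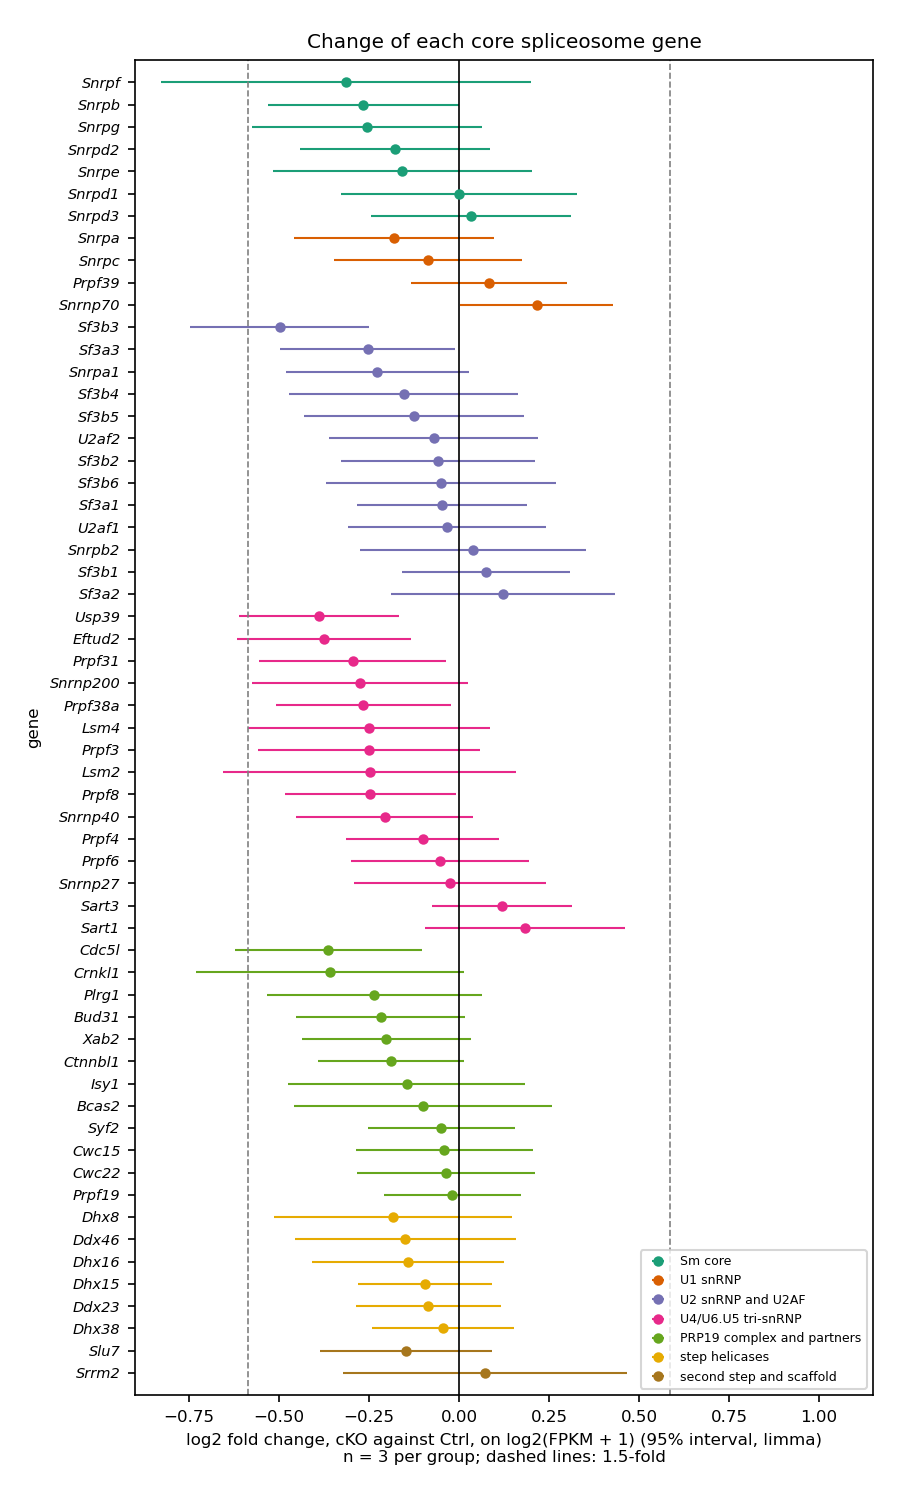
Log2 fold change of each of the 59 genes (cKO against Ctrl, on log2(FPKM + 1), n = 3 per group) with its 95% interval from limma, coloured by role group; dashed lines mark 1.5-fold. All 59 intervals lie within 2-fold, 8 lie wholly below 0, from *Sf3b3* to *Prpf8*, and only that of *Snrnp70* lies wholly above 0.

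The PRP19 complex and its partners stabilise the activated spliceosome. All 12 genes had a negative log2 fold change, with a median of -0.17. Of the 12, 4 were lower without overlap, beside 12.8% of all tested genes. Without Ctrl 2 the median was -0.07 and 10 were negative, with *Syf2* at 0.02 and *Cwc22* at 0.06. *Cdc5l*, a core subunit, was at 30.6, 36.6 and 27.7 FPKM in Ctrl and at 24.1, 23.7 and 25.0 FPKM in cKO. The cKO samples lay close together below the Ctrl range (log2 fold change -0.36, 95% interval -0.62 to -0.10, adjusted p 0.206 by limma), and 36.6% of the 50-base stretches of *Cdc5l* are shared with other genes, mostly Gm9045. *Crnkl1*, a scaffold with tetratricopeptide-like repeats, was at 15.2, 23.9 and 16.7 FPKM in Ctrl and at 14.4, 13.6 and 14.1 FPKM in cKO. Here the distance between groups came largely from Ctrl 2, since the log2 fold change was -0.36 with it and -0.17 without it.

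*Plrg1*, a WD-repeat subunit, was at 30.3, 40.5 and 29.7 FPKM in Ctrl and at 29.0, 26.8 and 28.2 FPKM in cKO, and its log2 fold change was -0.24 with Ctrl 2 and -0.10 without it. *Ctnnbl1*, a partner of CDC5L, was at 16.2, 17.4 and 15.3 FPKM in Ctrl and at 14.2, 13.4 and 15.03 FPKM in cKO. Neither pair of groups overlapped, but cKO 1 in *Plrg1* and cKO 3 in *Ctnnbl1* came within 1 FPKM of the lowest Ctrl sample. *Bud31* was at 38.0, 44.9 and 44.8 FPKM in Ctrl and at 36.8, 33.6 and 38.9 FPKM in cKO, and *Bcas2*, a PRP19-complex subunit, at 21.7, 28.0 and 27.3 FPKM against 21.5, 21.2 and 29.2 FPKM. In both genes cKO 3 lay within or above the Ctrl range.

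*Cwc15*, the most abundant gene of the group, was at 50.6, 56.5 and 61.8 FPKM in Ctrl and at 52.0, 52.1 and 59.9 FPKM in cKO. *Isy1*, the least abundant of the 59 in FPKM, was at 4.58, 5.2 and 3.61 FPKM in Ctrl and at 3.41, 3.9 and 4.45 FPKM in cKO. Both genes overlapped between groups. The ubiquitin ligase gene *Prpf19*, after which the complex is named, had a Ctrl mean of 35.5 ± 1.35 FPKM and a cKO mean of 35.01 ± 2.12 FPKM (SD, n = 3 each), with a log2 fold change of -0.02 and an interval of -0.21 to 0.17. *Syf2* was at 33.3 ± 2.99 and 32.1 ± 0.436 FPKM, *Xab2* at 15.9 ± 1.7 and 13.6 ± 0.716 FPKM and *Cwc22* at 8.92 ± 1.16 and 8.63 ± 0.405 FPKM. Of these, *Xab2* had the largest difference (log2 fold change -0.20, 95% interval -0.44 to 0.03).

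The step helicases use ATP to drive each transition of the cycle. All 6 had a negative log2 fold change, with a median of -0.12 and limma adjusted p-values from 0.557 upward. Of the 6, 1 was lower without overlap, beside 12.8% of all tested genes. Without Ctrl 2 the median was -0.04 and 5 were negative, with *Dhx38* at 0.0087, and without cKO 1 the median was -0.08. *Dhx15*, which disassembles the spliceosome and is the most abundant helicase of this group, was at 30.9, 34.3 and 31.3 FPKM in Ctrl and at 29.0, 30.9 and 30.3 FPKM in cKO. The groups did not overlap, but Ctrl 1 and cKO 2 were equal to the 3 digits given and the log2 fold change was only -0.09 (95% interval -0.28 to 0.09), or -0.05 without Ctrl 2. *Dhx8*, which releases the mRNA and is the least abundant, was at 10.7, 11.0 and 7.66 FPKM in Ctrl and at 7.81, 8.27 and 9.13 FPKM in cKO, with Ctrl 3 below all cKO samples. *Ddx46* had a Ctrl mean of 22.1 ± 4.1 FPKM and a cKO mean of 19.6 ± 0.937 FPKM (SD, n = 3 each), and *Ddx23* at 17.3 ± 0.967 and 16.3 ± 1.07 FPKM. *Dhx16* was at 12.7 ± 1.75 and 11.4 ± 0.833 FPKM, and *Dhx38* at 12.02 ± 0.853 and 11.6 ± 0.429 FPKM. Their groups overlapped.

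The second step and scaffold group held *Slu7* and *Srrm2*. *Slu7*, a factor for choosing the 3′ splice site at the second step, was at 19.3, 23.3 and 18.9 FPKM in Ctrl and at 18.3, 19.3 and 17.5 FPKM in cKO. *Srrm2*, a scaffold of nuclear speckles, was at 30.3, 28.4 and 26.3 FPKM in Ctrl and at 30.04, 37.9 and 23.2 FPKM in cKO. The cKO samples of *Srrm2* spread on both sides of the Ctrl samples, with an SD of 7.35 FPKM beside 2.0 FPKM in Ctrl, and its log2 fold change was 0.07 (95% interval -0.32 to 0.47).

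**Figure D5:**
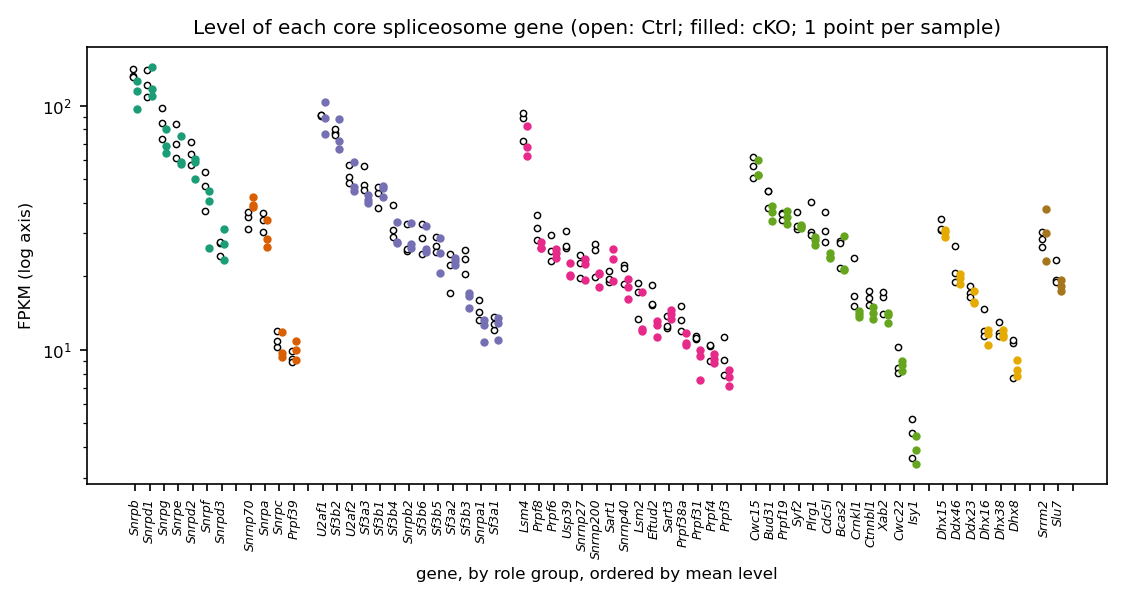
FPKM (log axis) of each of the 59 genes in each sample, by role group and ordered by mean level within a group; open points are Ctrl and filled points cKO. Levels run from near 4 FPKM (*Isy1*) to above 100 FPKM (*Snrpb*, *Snrpd1*), and for most genes the open and filled points intermingle.

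The study names 6 of these genes in connection with SRSF1: *Sart1*, *Srrm2*, *Sf3b6* and *Sf3a2* as partners of the protein and *Bcas2* and *Bud31* as bound transcripts. Their median log2 fold change was 0.01, with 3 negative, 3 positive and 0 called. Of the 6, 0 were without overlap between groups, beside 12.8% (lower) and 10.3% (higher) of all tested genes. With 1 sample left out the median lay between -0.03 and 0.03, and the values in each sample are given with their role groups above. Adjusted p-values of the 6 genes ran from 0.345 (*Bud31*) to 0.886 (*Sf3b6*) by limma.

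The other genes of the pathway were described in the same way. Of 73 further spliceosome and snRNP assembly genes 72 were tested, *Gemin4* lying below the filter at 0.0962 to 0.204 FPKM. Their median log2 fold change was -0.08, with 51 negative (70.8%, beside 49.5% of all tested genes) and 0 called by limma. Lower without overlap were 10 of them (13.9%, beside 12.8% of all tested genes). Higher without overlap were 3 (4.17%, beside 10.3%). At an unadjusted p under 0.05 by limma there were 9 (12.5%, beside 15.9% of all tested genes). Without Ctrl 2 the median was -0.03, with 44 negative, and without Ctrl 1 it was -0.13. Over all 6 samples the medians were -0.20 for the Lsm ring and U6 proteins (10 genes), 0.0031 for the U1 and U2 auxiliary factors (13), -0.06 for factors of activation and catalysis (20), -0.09 for the minor spliceosome (9), -0.10 for snRNP assembly (15) and -0.15 for the exon junction complex (5). The most negative were *Ppih*, a tri-snRNP cyclophilin (-0.49), *Dnajc8* (-0.47) and the helicase gene *Ddx41* (-0.46). *Dnajc8* had the lowest adjusted p of these genes, 0.166. The most positive were *Luc7l2* (0.24), *Cwc27* (0.19) and *Luc7l3* (0.17). *Luc7l2*, which like *Snrnp70* belongs to U1, was at 17.3, 16.3 and 17.6 FPKM in Ctrl and at 20.1, 21.1 and 19.8 FPKM in cKO, so that its groups did not overlap.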

How the data were processed

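RNA-seq of polyadenylated RNA from whole testes at 5 dpp was analysed in 3 Ctrl and 3 cKO samples, with group and replicate number taken from the sample titles. Per the study's methods and the submitters' processing notes, reads were aligned to mm10 with HISAT2 2.0.5 and counted with featureCounts, and the authors tested their counts with DESeq2. The authors deposited 1 FPKM value per gene and sample, a read count scaled by the length of the gene and the size of the library, for 54532 genes. The annotation release and strand setting are not given in the sources used here. Of the identifiers, 54409 were found in GENCODE mouse release M21, and 56 of the 59 members had the same coordinates there. Exon overlap and shared stretches of 50 bases were computed from that release.

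Multiplying each deposited FPKM by its gene length gave whole multiples of 1 unit in every sample (100% of values, within 0.01), from which reads per gene were recovered, with totals of 15448191 to 18964743. For a 1000-base gene, 3 reads corresponded to 0.158 to 0.194 FPKM, a floor that covers counting error only. Replicates of a group differed by more than sampling noise (chi-square per degree of freedom 11.3 to 29.0).

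A linear model with the 2 groups was fitted with limma 3.58.1 in R 4.3.3 to log2(FPKM + 1). Genes had to average 0.5 FPKM or more over the 6 samples, which 16206 did. The variance was moderated along its trend with the mean. Two-sided p-values were adjusted over all tested genes by Benjamini-Hochberg (threshold 0.05). A fold change on this scale understates that of low genes. The steps were tested on simulated data whose planted changes were far larger than those of the members. Detection of changes as small as the members' was not tested. The alternatives were a pseudocount of 0.1, a minimum of 1 FPKM, no filter, TPM, quantile normalization, a fit of protein-coding genes alone, voom weights on the recovered reads, a replicate block, no trend, and leaving out each sample.

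The members and all gene lists were chosen with earlier results of these data known. Values in each sample are given for the members the study names, those past the threshold (there were 0), the 6 most negative and the 6 most positive, those without overlap between groups, the highest and lowest of each role group by mean FPKM, and the Sm genes. *Luc7l2*, outside the members, was given because it was among the 3 most positive of the further genes. Promoter windows came from RefSeq (GRCm38.p6).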

Additional observations from a re-analysis of the deposited data

How the results depend on the processing

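Under all 15 alternatives the number of members called stayed 0, and the members' median log2 fold change stayed negative, from -0.21 (without cKO 3) to -0.07 (without Ctrl 2). Between 44 and 52 members were negative and between 12 and 30 were lower without overlap. Of 555 values of the 37 members followed singly, 0 passed the threshold and 13 had the other sign. As TPM, 5 genes of all tested were called, *Srsf1* was at -0.86 (adjusted p 0.036 by limma) and 2 members (*Snrnp70*, *Sart3*) were higher without overlap. With protein-coding genes only, 213 genes were called and *Srsf1* was at -0.85 (0.016). With limma voom 83 were called and *Srsf1* was at -0.86 (0.025), and with no mean-variance trend 1 was called. With a replicate block 98 were called, *Srsf1* was at -0.85 (0.033) and the members called stayed 0. The correlations of deviations for samples of the same number were 0.066, 0.016 and 0.088. Those for samples of different numbers were lower or similar, from -0.095 to 0.041. The labels do not state a pairing, and whether the replicate numbers pair the samples was not tested. The cause of the differences in genes called was not tested.

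Leaving out 1 sample at a time gave 14 to 30 members lower and 1 to 3 higher without overlap, where a smaller group separates more easily, and 0 to 18 genes called of all tested. Of the members, 30 (50.8%) were lower without overlap without cKO 3, beside 19.4% of all tested genes, and 21 (35.6%) without Ctrl 3, beside 18.7%. Over the 6 left-out samples that share of all tested genes ran from 15.9% to 19.4%. The 18 called genes came without Ctrl 2. With 1 sample left out, the log2 fold change ranged from -0.11 to 0.028 for *Cwc15*, from -0.10 to 0.033 for *Sf3a1*, from -0.021 to 0.23 for *Sf3a2*, from -0.0072 to 0.13 for *Sf3b1* and from -0.16 to 0.047 for *Sf3b6*. It ranged from -0.12 to 0.092 for *Snrpd1*, from -0.069 to 0.13 for *Snrpd3*, from -0.10 to 0.25 for *Srrm2* and from -0.14 to 0.073 for *U2af1*. The sign of these 9 genes thus depended on which sample was left out, as did that of 9 further members (*U2af2*, *Sf3b2*, *Prpf6*, *Syf2*, *Dhx38*, *Cwc22*, *Snrnp27*, *Prpf19* and *Snrpb2*), so that 41 of the 59 kept their sign in all alternatives. Without the 14 members that share over 10% of their exonic bases or 50-base stretches with other genes, the 45 others had a median of -0.10. Of these 45, 10 were lower without overlap, beside 12.8% of all tested genes.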

Other observations

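The order of the members by level depended on the gene length used for scaling. In deposited FPKM the highest means were those of *Snrpb* (124.002 FPKM) and *Snrpd1* (123.6 FPKM), and *Snrnp70* stood at 37.2 FPKM and *Prpf19* at 35.2 FPKM. Scaled to the length of the principal transcript, *Snrpb* was at 211, *Snrpe* at 185, *Snrnp70* at 163, *Snrpd1* at 120.5 and *Prpf19* at 120.2 FPKM. This scaling assigned all reads of a gene to that transcript, also those in other exons. The changes between cKO and Ctrl do not depend on this length, apart from the added constant of 1 FPKM.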
